A study of Mus musculus with 25 samples.

Results

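The 40 mitosis and spindle genes described here are a fixed list of symbols. All 40 were found among the 38087 genes listed in each of a pair of mouse expression tables, one of cells sorted from injured muscle and one of cultured macrophages. The list holds the cyclins and phosphatases that switch Cdk1 on, mitotic kinases, checkpoint and anaphase-promoting-complex genes, centromere and passenger proteins, spindle motors, cytokinesis genes and 3 chromosome genes. No measured value entered the list as it was defined, although earlier results of these data were known when it was drawn up.

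Entry into mitosis is driven by Cdk1 bound to cyclin B, which the Cdc25 phosphatases activate and which Plk1 and the Aurora kinases accompany. The spindle checkpoint then holds the anaphase-promoting complex until every chromosome is attached, after which Cdc20 and Ube2c send cyclin B and securin for destruction and the cell divides. Most of these genes are transcribed from the end of S phase into mitosis, through CCAAT boxes bound by NF-Y and the cell cycle homology region (CHR, TTTGAA or a near relative) bound by the MuvB complexes. Infiltrating macrophages of injured muscle are known first as Ly6Chigh cells, which derive from blood monocytes, and later as Ly6Clow cells, which are the better known for dividing in the tissue.

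The muscle samples came from adult male C57BL/6J mice, 2 to 4 months old, whose tibialis anterior had been injected with cardiotoxin (CTX), a snake venom toxin that destroys myofibers. CD45+ cells were taken with magnetic beads and then sorted by flow cytometry. Neutrophils (Ly6Ghigh) were sorted on day 1 (3 samples), Ly6Clow F4/80high macrophages on day 4 (2 samples) and day 2 (3 samples), and Ly6Chigh F4/80low macrophages on day 4 (2 samples) and day 2 (3 samples). Bone marrow-derived macrophages (BMDM) of male C57BL/6J mice, 8 to 10 weeks old in the protocol, were grown with 10 ng/ml M-CSF, kept 24 h without it, and given RvD2 (resolvin D2, a resolving lipid that cells make from an omega-3 fatty acid) at 10 nM for 4 h (3 samples) or left untreated (3 samples). The muscle table gives 1 value per group, the authors' mean, so no muscle difference below has an error or a test. The BMDM table gives 1 value per library. Ly6Chigh macrophages of day 1 and blood monocytes, with 3 samples each, were not analysed here. Whether replicates came from separate mice or cultures is not said in the labels; p-values therefore reflect only how these libraries vary, which may be technical.

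Values are normalised counts, or their log2 where stated. Their sum per group was 26001356 in neutrophils and between 11861059 and 12756804 in the macrophage groups, and between 12379359 and 12765166 per BMDM library. The sorted cells carried markers of their labels, but the sum of the macrophage markers did not set neutrophils apart. Ly6g was at 7.20 (log2) in neutrophils and listed at 0 in all 4 macrophage groups, and the 7 monocyte markers, Ly6c2 among them, summed to 4053 and 3881 in Ly6Clow macrophages of days 4 and 2 against 39148 and 37532 in Ly6Chigh macrophages of the same days. The 9 macrophage markers summed to 328662.5 in neutrophils and to between 217072 and 331112.5 in the macrophage groups. Of these markers, Cd14, Itgam and Cd63 were highest in neutrophils among the sorted groups, and the others were lowest there. The BMDM had macrophage markers (Csf1r between 14.1 and 14.4, log2) and also fibroblast markers. These ranged widely, with Col1a1 between 13.95 and 14.53, Pdgfra between 8.60 and 9.17 and Lum between 0 and 1.09 (log2). All coordinates are on GRCm38, the assembly also called mm10, which the submitters' processing notes name.

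The promoters of the members are shown first because the genes moved largely together and because 2 members that did not follow the others are among them. RefSeq (GRCm38.p6) gave 35 promoters for 33 of the 40 members, each 300 bases long, from 250 before to 50 after the annotated start. Both strands were searched for CCAAT and for TTTGAA and TTTAAA, the spellings of the CHR used here. Capitals mark these matches. The first 4 belong to genes that were lower with RvD2, and the last 2 to the genes whose values were higher.

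Ccnb2: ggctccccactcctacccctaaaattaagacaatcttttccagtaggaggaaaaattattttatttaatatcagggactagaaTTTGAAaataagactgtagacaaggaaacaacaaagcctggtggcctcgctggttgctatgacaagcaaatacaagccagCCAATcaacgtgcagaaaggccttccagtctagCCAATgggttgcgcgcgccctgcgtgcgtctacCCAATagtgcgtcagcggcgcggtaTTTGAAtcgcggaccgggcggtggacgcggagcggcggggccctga
Ccnb1: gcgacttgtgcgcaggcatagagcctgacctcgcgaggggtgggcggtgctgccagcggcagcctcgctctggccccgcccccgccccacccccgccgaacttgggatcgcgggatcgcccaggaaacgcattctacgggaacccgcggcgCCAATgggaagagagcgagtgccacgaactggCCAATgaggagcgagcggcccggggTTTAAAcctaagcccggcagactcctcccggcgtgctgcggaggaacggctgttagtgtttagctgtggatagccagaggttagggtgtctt
Cdc20: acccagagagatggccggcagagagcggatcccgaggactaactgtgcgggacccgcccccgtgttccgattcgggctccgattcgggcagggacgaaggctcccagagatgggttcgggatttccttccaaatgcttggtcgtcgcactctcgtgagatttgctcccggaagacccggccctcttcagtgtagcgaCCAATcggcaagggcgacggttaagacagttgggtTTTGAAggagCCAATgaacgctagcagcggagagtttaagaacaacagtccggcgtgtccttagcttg
Plk1: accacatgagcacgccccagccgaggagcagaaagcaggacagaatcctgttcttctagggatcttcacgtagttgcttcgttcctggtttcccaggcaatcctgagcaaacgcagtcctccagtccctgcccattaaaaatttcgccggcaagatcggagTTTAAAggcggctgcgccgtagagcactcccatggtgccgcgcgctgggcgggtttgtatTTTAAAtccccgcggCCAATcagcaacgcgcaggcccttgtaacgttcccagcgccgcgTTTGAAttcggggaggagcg
Cenpa: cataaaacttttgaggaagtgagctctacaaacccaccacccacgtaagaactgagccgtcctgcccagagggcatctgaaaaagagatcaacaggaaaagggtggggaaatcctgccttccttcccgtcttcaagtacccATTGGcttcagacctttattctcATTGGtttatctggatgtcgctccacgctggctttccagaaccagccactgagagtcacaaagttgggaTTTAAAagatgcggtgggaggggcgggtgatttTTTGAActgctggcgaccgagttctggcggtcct
Pttg1: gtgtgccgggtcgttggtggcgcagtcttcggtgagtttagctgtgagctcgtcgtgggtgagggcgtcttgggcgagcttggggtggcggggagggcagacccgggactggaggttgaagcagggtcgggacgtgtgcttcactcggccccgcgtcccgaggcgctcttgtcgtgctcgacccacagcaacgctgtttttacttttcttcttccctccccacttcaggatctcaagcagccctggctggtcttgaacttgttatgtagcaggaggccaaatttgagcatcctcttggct

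These windows lay at chr9:70421505-70421804 (minus strand) for Ccnb2, chr13:100786437-100786736 (minus) for Ccnb1, chr4:118437294-118437593 (minus) for Cdc20, chr7:122159185-122159484 (plus) for Plk1, chr5:30666636-30666935 (plus) for Cenpa and chr11:43425932-43426231 (minus) for Pttg1. The Ccnb2 window held 3 CCAAT and 2 TTTGAA, and the Cdc20 window 2 CCAAT and 1 TTTGAA. The Ccnb1 window held 2 CCAAT and 1 TTTAAA. Plk1, with 1 CCAAT, had 1 TTTGAA and 2 TTTAAA. Cenpa held the same kinds of letters (2 CCAAT on the other strand, 1 TTTGAA and 1 TTTAAA), whereas the Pttg1 window held none of the motifs. The Pttg1 window lay wholly inside the gene as the GENCODE annotation places it (chr11:43420250-43426251). The sequence before the GENCODE start of Pttg1 was therefore not searched. Absence of the motifs did not go with 1 direction: the windows of Nusap1, which fell with RvD2, and of Mad2l1, whose groups overlapped, held none of them either, and that of Troap, which fell, held CCAAT but neither CHR spelling. The Troap window, too, lay inside its GENCODE gene (chr15:99074575-99083409). Over all member promoters, CCAAT was present in 29 of 35 (82.9%), against 37.4% of all 32851 mouse promoters in the same table. TTTGAA was present in 25 of 35 (71.4%), against 17.9% of all promoters. CCAAT at 2 or more places was found in 19 of 35 (54.3%), against 11.7% of all promoters, and CCAAT together with TTTGAA or TTTAAA in 25 of 35 (71.4%), against 10.7%. A match is a description of the letters in the window and not of binding.

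Across the 4 macrophage groups the genes kept a common order. Of the 40 genes, 36 were highest in Ly6Clow macrophages of day 4 and 37 were lowest in Ly6Chigh macrophages of day 2. The full order Ly6Clow day 4, Ly6Clow day 2, Ly6Chigh day 4, Ly6Chigh day 2 was seen for 26 genes, and for 11 genes Ly6Clow day 2 lay below Ly6Chigh day 4. Without errors, neighbours in this order cannot be said to differ. How many of all genes keep this order was not counted, so it is not shown to be particular to the list. Summed over all 40 genes, the level was 7850 normalised counts in Ly6Clow day 4, 5235 in Ly6Clow day 2, 4749 in Ly6Chigh day 4 and 2266 in Ly6Chigh day 2. In the lowest group 18 genes were under 10 counts, and Troap, a microtubule-associated protein, was listed at 0. Fewer dividing cells and less mRNA in each cell cannot be told apart in such bulk samples.

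**Figure D1:**
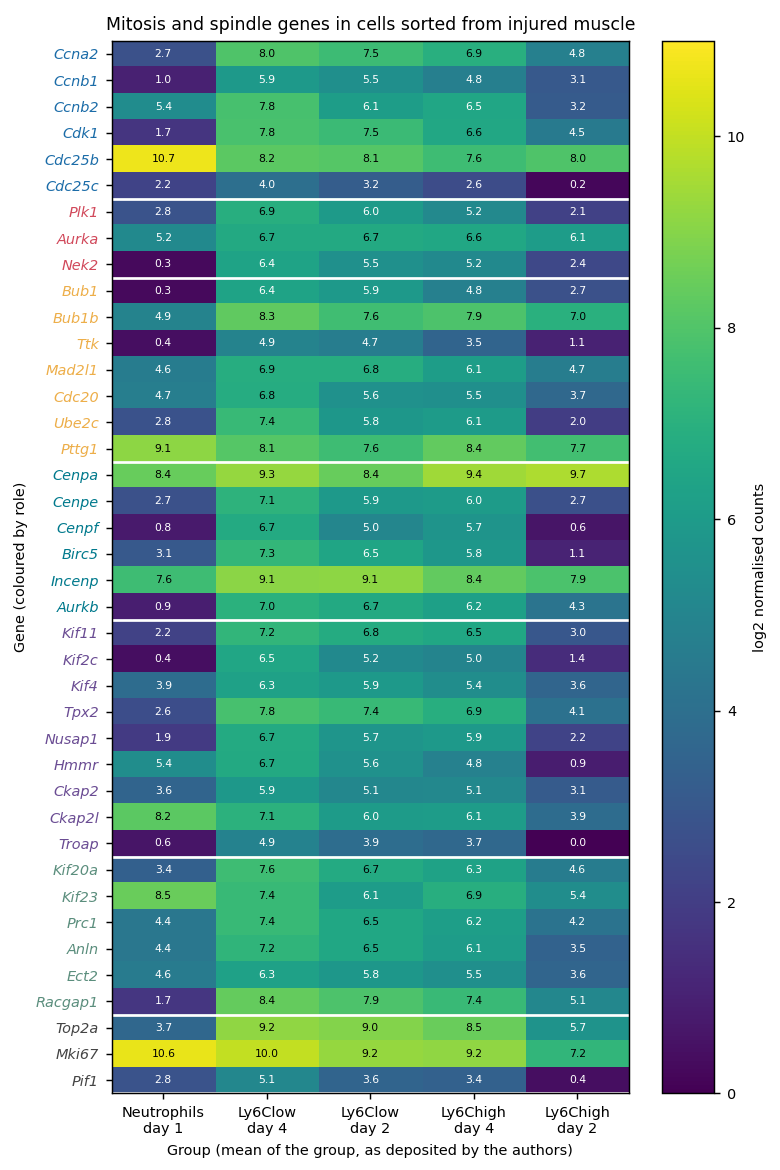
Level of each of the 40 genes (rows, coloured by role) in the 5 sorted groups (columns) as log2 normalised counts, 1 deposited group mean per cell. The Ly6Clow day 4 column is the highest of the macrophage columns for 36 genes and the Ly6Chigh day 2 column the lowest for 37; neutrophils are high for Cdc25b (10.7), Mki67 (10.6) and Pttg1 (9.1) and low for Ccnb1 (1.0) and Cdk1 (1.7).

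Per kilobase of exon, the highest members in Ly6Clow macrophages of day 4 were Ccnb2 with 144 normalised counts per kb, Pttg1 with 137, Incenp with 125, Cenpa with 105 and Mki67 with 101. In Ly6Chigh macrophages of day 2 the highest were Cenpa with 137, Pttg1 with 102 and Cdc25b with 67.7 normalised counts per kb. The mitotic cyclins were low there, with 5.82 per kb for Ccnb2 and 2.02 for Ccnb1.

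On day 2, Ly6Clow macrophages had higher levels of nearly the whole list than Ly6Chigh macrophages. The ratio was formed after adding 10 counts to both groups, which shrinks the ratios of low genes, and a gene was called when it differed by at least 2-fold with 50 or more counts in the higher group. By this rule 23 of the 40 genes were called higher and 1 lower, where 5.9% of all 11275 genes at that level were called higher and 5.46% lower. The remaining genes comprised 5 at the level minimum that were not called and 11 under it. The median log2 ratio over all 40 genes was 1.89, beside -0.00 over all genes, and 38 of the 40 lay above 0.

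Top2a and Birc5 had the largest day 2 ratios. Top2a, the topoisomerase that untangles sister chromatids, had 498 counts in Ly6Clow and 50.7 in Ly6Chigh macrophages, a log2 ratio of 3.07. Birc5 (survivin), which targets Aurora B to centromeres, had 88.4 in Ly6Clow and 2.12 in Ly6Chigh (3.02). Its kinase partner Aurkb had 104 in Ly6Clow and 19.1 in Ly6Chigh (1.97). The proliferation antigen Mki67, which coats mitotic chromosomes, had 605 in Ly6Clow and 150.5 in Ly6Chigh (1.94), a ratio near the middle of the list.

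Of the 9 spindle genes, 5 were called higher, and of the 6 genes of cyclins, Cdk1 and Cdc25, 3. Kif11, the motor that pushes spindle poles apart, had 110 counts in Ly6Clow and 7.87 in Ly6Chigh macrophages (log2 ratio 2.74). Tpx2, which activates Aurora A on the spindle, had 173 in Ly6Clow and 17.4 in Ly6Chigh (2.73). Cdk1 had 182 in Ly6Clow and 23.1 in Ly6Chigh (2.54), and all 3 were at least 5.81-fold apart. Racgap1, a central spindle subunit needed for cytokinesis, had 247 in Ly6Clow and 34.3 in Ly6Chigh (2.53). Plk1, the polo kinase, had 64.2 in Ly6Clow and 4.37 in Ly6Chigh (2.37). Ccnb1, with 44.6 in Ly6Clow and 8.53 in Ly6Chigh (1.56), and Cdc20, with 47.0 in Ly6Clow and 13.3 in Ly6Chigh (1.29), stayed below the level minimum and were not called.

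Some members hardly differed or went the other way. Cenpa, the histone H3 variant of centromeres, was called lower, with 343 counts in Ly6Clow and 805 in Ly6Chigh macrophages (log2 ratio -1.21). Securin, Pttg1, which restrains separase, had 190.5 in Ly6Clow and 203 in Ly6Chigh (-0.09). Cdc25b (0.10), Aurka, the centrosomal Aurora kinase (0.53), and Kif23, a central spindle motor (0.56), were the other small ratios. These 5 genes were among those that Ly6Chigh macrophages already held at 42.6 counts or more.

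On day 4 the subsets were closer. In Ly6Clow against Ly6Chigh macrophages 11 members were called higher and 0 lower, where 2.98% of all 11764 genes at the level minimum were called higher and 4.22% lower, and 4 members were under the minimum. The median over all 40 genes was 0.89, and again 38 lay above 0. Hmmr, a spindle-associated hyaluronan receptor, had 104 counts in Ly6Clow and 28.4 in Ly6Chigh macrophages (log2 ratio 1.56). Plk1 had 120 in Ly6Clow and 36.7 in Ly6Chigh (1.47). Birc5 had 155 in Ly6Clow and 55.9 in Ly6Chigh (1.33). The checkpoint kinase Bub1, with a log2 ratio of 1.33, ranked beside Birc5. The microtubule depolymerase Kif2c (1.27), the ubiquitin-conjugating enzyme Ube2c (1.23), Cdk1 (1.16) and Cdc20 (1.15) were also called, and Ccnb1 (0.94), Mki67 (0.80), Aurkb (0.73) and Top2a (0.66) were not called. The checkpoint kinase Bub1b (0.35) and Aurka (0.09) were near 0, and Cenpa (-0.15) and Pttg1 (-0.26) lay below it. The count is set largely by the 2-fold line, since 31 members passed 1.5-fold.

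**Figure D2:**
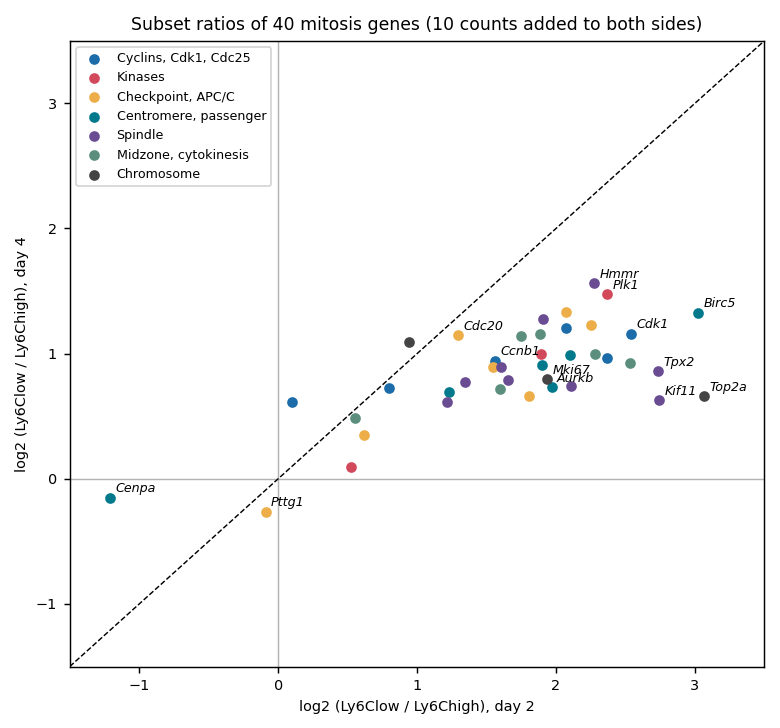
Log2 ratio of Ly6Clow over Ly6Chigh macrophages on day 2 (horizontal axis) and day 4 (vertical axis) for the 40 genes, 1 point per gene coloured by role, after adding 10 counts. Of the 40 points, 37 lie below the dashed line of equal ratios; Cenpa (-1.21 on day 2) lies far to the left and Top2a (3.07) and Birc5 (3.02) to the right.

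For 37 of the 40 genes the subset ratio was smaller on day 4 than on day 2. The median difference between the log2 ratios was -0.80, beside -0.00 over all 12047 genes at the level minimum. The ratio differed most between the days for Top2a (-2.40), Kif11 (-2.11), Tpx2 (-1.88) and Birc5 (-1.70), and the log2 ratio was larger on day 4 for Cdc25b (by 0.51) and for Pif1, a DNA helicase (by 0.16). For Cenpa it was closer to 0 on day 4 (-0.15) than on day 2 (-1.21). This difference could not be tested.

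Ly6Chigh macrophages had higher levels on the later day. Between day 4 and day 2, Ly6Chigh macrophages had 20 members called higher and 0 lower, where 9.67% of all 11618 genes at the level minimum were called higher and 3.74% lower, and 14 members were under the minimum. The median over all 40 genes was 1.55, with 38 above 0. Top2a had 358 counts on day 4 and 50.7 on day 2 (log2 ratio 2.60). Kif11 had 93.04 on day 4 and 7.87 on day 2 (2.53). Ube2c had 66.6 on day 4 and 4.02 on day 2 (2.45). Birc5 (2.44), the kinetochore protein Cenpf (2.42) and cyclin B2, Ccnb2 (2.40), completed the 6 largest ratios. Mki67 (1.88), Cdk1 (1.70) and Aurkb (1.55) were also called, whereas Plk1 (1.70), Cdc20 (1.23) and Ccnb1 (1.01) stayed under 50 counts in both groups. Aurka (0.42) and the passenger scaffold Incenp (0.47) differed little, and Cenpa (-0.24) and Cdc25b (-0.37) were on the lower side.

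Markers of other cells also moved between these days, and their part in the result was not tested. The 12 fibroblast markers summed to 26910 counts in Ly6Chigh macrophages on day 4 and 295 on day 2. The 14 T and NK cell markers summed to 1292 on day 4 and 45.3 on day 2, the 11 dendritic cell markers to 7188 on day 4 and 2308 on day 2, the 6 B cell markers to 3752 on day 4 and 977.5 on day 2, and the 12 muscle and myoblast markers to 871 on day 4 and 256 on day 2, with Myf5, Myog, Pax7, Actc1 and Myh4 listed at 0 on day 2. In Ly6Clow macrophages, whose mitosis genes were the higher on both days, the fibroblast markers summed to 1918 on day 4 and 96.0 on day 2, below the Ly6Chigh sums of the same days. Their muscle and myoblast markers summed to 1515 on day 4 and 309.5 on day 2, and their dendritic cell markers to 5421 on day 4 and 2604 on day 2. Their B cell markers summed to 2367 on day 4 and 278.5 on day 2, and their T and NK cell markers to 49.4 on day 4 and 12.8 on day 2. Of the 14 T and NK cell markers, 4 were at 0 on day 4 and 8 on day 2, Cd3g and Cd8a on both.

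In Ly6Clow macrophages the later day was higher by less. Day 4 against day 2 gave 7 members called higher and 0 lower, where 8.08% of all 11560 genes at the level minimum were called higher and 3.24% lower, and 4 members were under the minimum. The 7 were Ccnb2, Cdc20, Ube2c, Kif2c, Kif23, Cenpf and Cenpe, a kinetochore motor. Ccnb2 had 221 counts on day 4 and 69.4 on day 2 (log2 ratio 1.54). Cenpf had 106 on day 4 and 33.0 on day 2 (1.43). Ube2c had 169.6 on day 4 and 56.6 on day 2 (1.43). These are genes whose products act from the G2 phase to anaphase. Kif23 (1.21), Kif2c (1.08), Cdc20 (1.08) and Cenpe (1.08) followed. Plk1 (0.81), Birc5 (0.75), Mki67 (0.73), Ccnb1 (0.39), Cdk1 (0.32), Aurkb (0.32) and Top2a (0.20) were not called. Cdc25b (0.14) and the checkpoint protein Mad2l1 (0.02) were close to 0, and Aurka (-0.02) and Incenp (-0.07) marginally below it. The median over all 40 genes was 0.64.

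The levels of DNA replication and G1/S genes, a list of 44, were compared over the same groups. On day 2, 32 of the 42 replication genes at the level minimum were called higher in Ly6Clow than in Ly6Chigh macrophages, with a median log2 ratio of 1.58 over all 44, close to the 1.89 of the mitosis genes. Clspn, a checkpoint adaptor at replication forks (log2 ratio 2.99), and Rrm2, the small subunit of ribonucleotide reductase (2.85), were the largest. On day 4 none of 39 was called and the median over all 44 was 0.12, against 0.89 for the mitosis genes. In Ly6Clow macrophages between day 4 and day 2, 0 replication genes were called higher and 6 lower of 42, with a median of -0.56 against 0.64 for the mitosis genes. Mcm2, part of the replicative helicase, differed by -1.55 and the replication gene Cdc45 by -1.28. In Ly6Chigh macrophages between the same days 10 of 33 were called higher, Rrm2 (2.06) and Mcm7 (1.55) the most. The shares of all genes called in these comparisons are those given above for the mitosis genes, and no difference between the lists was tested.

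**Figure D3:**
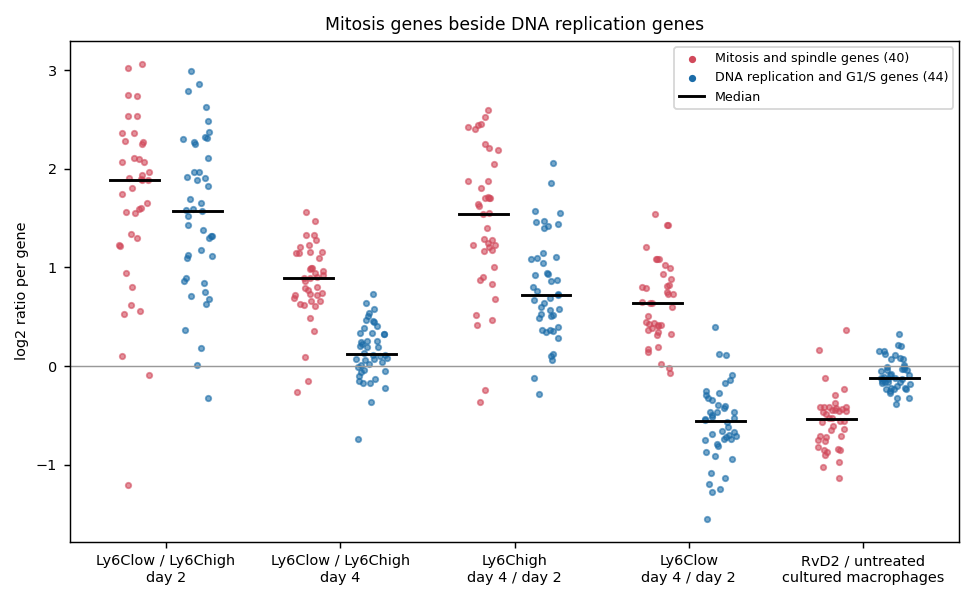
Log2 ratio per gene (vertical axis) for the 40 mitosis genes (red) and the 44 DNA replication and G1/S genes (blue) in 5 comparisons, with black bars at the medians. The medians are 1.89 and 1.58 in Ly6Clow over Ly6Chigh on day 2, but 0.64 and -0.56 in Ly6Clow day 4 over day 2, and -0.54 and -0.12 with RvD2.

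Further mitotic genes that are not in the list of 40 were counted in 7 groups fixed for this purpose, with 135 genes found. The kinesin group also holds Kif3a, Kif3b and Kif5b, motors that are not specific to mitosis. On day 2, 26 of 86 at the level minimum were called higher in Ly6Clow than in Ly6Chigh macrophages and 0 lower. The 2 with the largest ratio in each group that had any were the condensin subunits Ncapd2 (log2 ratio 2.80) and Ncaph (2.15), the Cdk1-inhibiting kinase Pkmyt1 (2.51), the kinase Melk (2.48), the chromokinesin Kif22 (2.45), the minus-end motor Kifc1 (1.87), the kinetochore protein Nuf2 (2.39), the passenger protein Cdca8 (2.26), citron kinase Cit (2.05), the tubulin-binding protein Stmn1 (2.02) and, of the transcription factors known to act at these promoters, Mybl2 (1.96) and Foxm1 (1.80). On day 4, 8 of 100 were called higher, among them Pbk, a mitotic kinase (1.43), Fam64a (1.39), the kinesin-II motor Kif3a (1.20), Ncaph (1.12), Wee1, the kinase that inhibits Cdk1 (1.11), Nuf2 (1.09), Kif22 (1.07) and Spc24 (1.02). The 1 called lower was Cks2, a Cdk1-binding subunit (-1.05). In Ly6Chigh macrophages 15 of 80 were called higher on day 4 than on day 2, with Ncapd2 (2.28), Spag5 (2.06), Stmn1 (1.88), Pkmyt1 (1.84), Tacc3 (1.57), Cks2 (1.52), Ncapg (1.49), Foxm1 (1.44), E2f8 (1.34) and Cdca8 (1.29) leading their groups, and 0 lower. In Ly6Clow macrophages the count was 2 higher, Aspm (1.33) and Fam64a (1.10), and 2 lower, Tuba1b (-1.19) and Tubg1 (-1.09), of 101. This lay under the 8.08% of all genes called higher and the 3.24% called lower there. The shares of all genes called higher and lower were 5.9% and 5.46% between subsets on day 2. They were 2.98% and 4.22% between subsets on day 4, and 9.67% and 3.74% between the days in Ly6Chigh macrophages. The 16 core and regulatory genes of the anaphase-promoting complex found in the table gave no call in any of these 4 macrophage comparisons, their medians lying between -0.11 and 0.18.

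Between the subsets, the inhibitors of division and the G1 genes were not mostly higher in Ly6Clow macrophages as the mitosis genes were. The shares of all genes called in these comparisons are those given above. Of the 6 G1 genes, 0 were called between the subsets on day 2, and on day 4 3 were lower in Ly6Clow than in Ly6Chigh macrophages, Ccnd2 (log2 ratio -2.51) and Ccnd1 (-1.18) by the most. Ccnd2 was also higher in Ly6Chigh macrophages on day 4 than on day 2 (2.20). Among 18 inhibitors of division, 14 reached the level minimum on day 2, with 2 called higher in Ly6Clow macrophages and 3 lower. On day 4, 1 of 16 was called higher and 2 lower. The antiproliferative gene Btg2 was lower in Ly6Clow than in Ly6Chigh macrophages on both days (-2.20 on day 2, -1.18 on day 4). Cdkn1b (p27) was lower on day 2 (-1.13). The pocket protein gene Rbl1 (1.30) and Cdkn2c, a Cdk4 and Cdk6 inhibitor (1.07), were higher on day 2, and Cdkn2c was higher on day 4 as well (1.13), when the growth arrest gene Gas1 was lower (-1.39). Between day 4 and day 2, inhibitors were called only higher, the direction of the mitosis genes. They were 4 of 16 in Ly6Chigh and 2 of 14 in Ly6Clow macrophages. Cdkn1c (p57) was higher on day 4 in Ly6Clow (2.49) and in Ly6Chigh macrophages (2.03), Btg2 in Ly6Clow (1.93) and Gas1 in Ly6Chigh (2.83). Gas1 is also a fibroblast gene, and the fibroblast marker sums above moved with it, but their part in its ratios was not tested.

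Neutrophils held a different selection of these genes. Against Ly6Chigh macrophages of day 2, 5 members were called higher and 3 lower, but only 10 of the 40 reached the level minimum, and 30.9% of all 11789 genes at it were called higher and 27.6% lower, so that calls in this comparison are common. Mki67 had 1598 counts in neutrophils and 150.5 in Ly6Chigh macrophages (log2 ratio 3.32). Ckap2l, a spindle protein, had 296 in neutrophils and 14.9 in Ly6Chigh (3.62). Cdc25b had 1682 in neutrophils and 252 in Ly6Chigh (2.69). The other 2 called higher were Kif23 (2.82), with 363 counts in neutrophils, and Pttg1 (1.40), with 553. These 5 genes were above all 4 macrophage groups, a count that was not made over all genes.

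Other members were low in neutrophils. Neutrophils lay below all 4 macrophage groups for 18 genes, which was likewise not counted over all genes. Cdk1 had 3.29 counts in neutrophils and 23.1 in Ly6Chigh macrophages (log2 ratio -1.32). Ccnb1 had 2.03 in neutrophils and 8.53 in Ly6Chigh (-0.62), and Aurkb had 1.89 in neutrophils and 19.1 in Ly6Chigh (-1.29). Ccnb2, also a partner of Cdk1, was on the other side, with 41.2 in neutrophils and 8.92 in Ly6Chigh (1.44). All 4 were under the level minimum. Called lower were Bub1b (-1.77), with 29.9 counts in neutrophils, Top2a (-1.41), with 12.9, and Cenpa (-1.19), with 346. Plk1 (0.24), Birc5 (0.60) and Cdc20 (0.64) were low in both groups, and Hmmr (2.13) had 41.8 counts in neutrophils and 1.82 in Ly6Chigh, under the level minimum. The smallest ratios were those of Cenpe (0.02), Cenpf (0.03), Mad2l1 (-0.04) and Ttk, a checkpoint kinase (-0.10). Below 0 were 19 genes in all, the others being Ccna2, Aurka, Nek2, Bub1, Incenp, Kif11, Kif2c, Tpx2, Nusap1, Kif20a and Racgap1. The neutrophil column sums to over 2-fold the others, and with groups set to equal totals the all-gene median moved to -0.99, against 0.15 as deposited, and the share of calls that were higher to 21.9%, against 52.8%. On that scale the member median turned to -0.38 (0.02 as deposited), 6 members were called lower, and Pttg1 (0.38) was no longer called, while Ckap2l (2.80), Mki67 (2.31), Kif23 (1.88) and Cdc25b (1.66) remained at least 2-fold higher. Relative to the all-gene median as deposited, the member median was -0.13.

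The replication list and the other mitotic genes had calls on both sides in neutrophils, on the deposited scale, at shares near the 30.9% and 27.6% of all genes. The inhibitors and the G1 genes did not keep to these shares. Of the replication genes, 9 of 29 were called higher, led by Mcm10 (log2 ratio 4.74) and the chromatin assembly subunit Chaf1b (2.32), and 7 lower, led by Mcm3 (-4.37) and Mcm6 (-3.54), which with Mcm2 form part of one helicase ring. Of the other mitotic genes 19 of 73 were higher and 17 lower, with Cks2 (3.41), the histone kinase Gsg2 (2.76) and Cenpl (2.24) at one end and Cenpt (-2.95), Wee1 (-2.48) and Tubb5 (-2.39) at the other. The next in their groups were, on the higher side, Ska3 (2.16), Cdc27 (2.12), Kifc1 (1.94), Kif24 (1.81), Stag2 (1.58), E2f2 (1.50), Nfyb (1.47), Ncapg2 (1.31) and Cep152 (1.06). On the lower side they were Cdc16 (-2.35), Kif3a (-2.27), Tubg1 (-2.26), Anapc1 (-2.18), E2f1 (-2.10), Cdc25a (-1.92), Smc2 (-1.84), Espl1 (-1.65) and Mad1l1 (-1.28). Of the inhibitors, 8 of 14 were called higher, Btg2 (4.62) and Gadd45b (4.16) by the most, and 1 lower, Cdkn2c (-1.55). Of the 6 G1 genes, 1 was called higher, Ccnd2 (4.19), and 3 lower, Ccnd1 (-3.89) and Myc (-3.51) by the most.

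Cultured macrophages given RvD2 for 4 h had lower levels of most of the list than untreated ones. Of the 40 genes, 28 fell and 0 rose in limma's moderated test with Benjamini-Hochberg adjustment over all 15239 genes at an adjusted p under 0.05, where 1.06% of all genes fell and 0.794% rose (162 and 121 genes). Without adjustment 37 members were lower and 1 higher at a p under 0.05, as were 8.41% and 7.15% of all genes. The median log2 difference was -0.54 over the 40 genes, all of them tested, and -0.00 over all genes. Every RvD2 library was below every untreated library for 35 of the 40 genes, where 11.7% of all genes were so separated, and above for 2, where 9.29% were. Summed over the list, the RvD2 libraries had 19426, 18242 and 18369 normalised counts and the untreated libraries 28669, 24833 and 25349. The highest RvD2 library thus lay well below the lowest untreated library. The number that passed was smaller in most fits with 1 library left out: 12, 15 and 16 members passed without untreated library 1, 2 or 3, and 28, 12 and 13 without RvD2 library 1, 2 or 3. Calls over all genes were fewer in the same fits, with 68, 56 and 70 genes lower without untreated library 1, 2 or 3. Without RvD2 library 1, 2 or 3 they were 150, 51 and 47. The number of members that passed was 17 with no filter on low values and 5 without the mean-variance trend, and 38 genes were below 0 in each of the 14 settings tried, the stated fit among them.

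**Figure D4:**
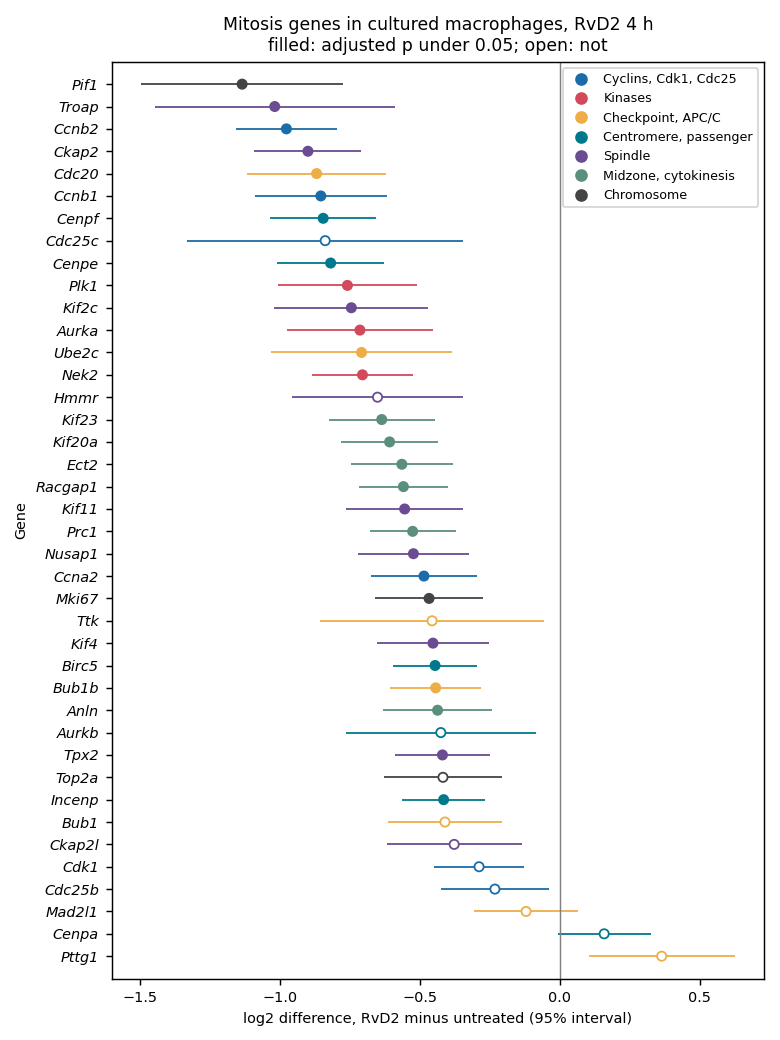
Difference in log2 level, RvD2 minus untreated BMDM, for each of the 40 genes with its 95% interval from limma (n = 3 libraries each); filled circles passed an adjusted p of 0.05 and open circles did not. Pif1 (-1.14), Troap (-1.02) and Ccnb2 (-0.98) are at the far left, and Cenpa (0.16) and Pttg1 (0.36) are alone to the right of 0.

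Of the 6 genes of cyclins, Cdk1 and Cdc25, 3 fell, and all 3 were cyclins. Ccnb2 had 155, 162 and 148 normalised counts in the RvD2 libraries, against 318, 304 and 293 in the untreated libraries. The groups were wide apart, and each was tight. The mean log2 level was 7.27 ± 0.06 with RvD2 and 8.25 ± 0.06 without (SD, n = 3 each), a difference of -0.98 ± 0.08 (SE; limma adjusted p 0.00279), or 49.2% lower. Ccnb1 had 220.3, 190.2 and 224 counts with RvD2, against 417, 338 and 394 without (difference -0.85 ± 0.10, adjusted p 0.00803). Here too the groups did not overlap. Ccna2, the cyclin of S and G2 phases, fell by 0.49 (adjusted p 0.0252; 12.49% of its exon bases overlap Exosc9 on the other strand), and Cdk1 itself had 818, 794 and 823 counts with RvD2, against 1095, 936 and 951 without. The Cdk1 groups did not overlap, but the difference of -0.29 had a limma adjusted p of 0.0854 and did not pass. Neither Cdc25b (-0.23) nor Cdc25c (-0.84), the phosphatases that activate Cdk1, passed, Cdc25c with only 26.8 to 71.3 counts per library.

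Reads of Ccnb1 may be shared with processed pseudogenes. Transcripts of Ccnb1-ps matched Ccnb1 at 99.2% identity and those of Gm12856 at 98.1%, and these gene entries differed alike, by -0.972 and -1.001 (limma adjusted p 0.0117 and 0.0192). Cdc20 and its pseudogene Gm7856 (93.7% identity) moved alike as well, the pseudogene by -1.10 (adjusted p 0.00813), and so did Plk1 and Plk-ps1 (93.5% identity, -0.70, adjusted p 0.0424). The sources used here do not give how reads were divided among these copies, so the levels of these 3 members are uncertain.

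Plk1, Aurka and Nek2 fell. Of the kinases described with other roles, Bub1b fell, and Cdk1, Bub1, Ttk and Aurkb did not pass. Plk1 had 346, 268 and 285 counts with RvD2, against 556, 470 and 491 without (difference -0.76 ± 0.11, limma adjusted p 0.0132). The centrosome kinases Aurka and Nek2 fell by 0.71 and 0.71 (adjusted p 0.0201 and 0.00623). Nek2, which splits the centrosomes, was among the 5 genes called in every setting tried.

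Of the 7 checkpoint and anaphase genes, 3 fell. Cdc20, the activator of the anaphase-promoting complex, had 374, 288 and 296 counts with RvD2, against 571, 545 and 625 without (difference -0.87 ± 0.11, limma adjusted p 0.00813). Its groups were separated by a wide gap. Ube2c fell by 0.71 (adjusted p 0.0469) and Bub1b by 0.44 (0.0210). For Ube2c, 22.8% of the exon bases overlap Tnnc2 on the other strand, and the library kit as described does not mark strand. Bub1 (-0.41, adjusted p 0.0602) and Ttk (-0.46, 0.255) did not pass. Mad2l1 had 382, 358 and 375 counts with RvD2, against 446, 392 and 376 without. Its groups overlapped, and the difference was -0.12 with a 95% interval of -0.31 to 0.06. Pttg1 had 159, 187 and 184 counts with RvD2, against 124, 154 and 134 without. It was the member that was highest above 0, at 0.36 with an interval of 0.10 to 0.62, but did not pass (adjusted p 0.164).

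Of the 6 centromere and passenger genes, 4 fell. Cenpf had 270, 315 and 289 counts with RvD2, against 563, 503 and 504 without (difference -0.85 ± 0.08, limma adjusted p 0.00339). Cenpe had 368, 334 and 356 with RvD2, against 687, 567 and 616 without (-0.82 ± 0.08, adjusted p 0.00402). Both kinetochore proteins are known to peak in G2 and mitosis. Birc5 fell by 0.45 (adjusted p 0.0151), with 381, 381 and 388 counts with RvD2 and 555, 498 and 515 without, and Incenp by 0.42 (0.0190). Aurkb had 397, 259 and 289 counts with RvD2, against 452, 381 and 418 without. RvD2 library 1 reached into the untreated range, and the difference of -0.43 did not pass (adjusted p 0.209). Cenpa had 628, 654 and 736 counts with RvD2, against 610, 582 and 612 without. All RvD2 libraries were thus the higher for Cenpa, but the difference of 0.16 had an interval of -0.01 to 0.32 and an adjusted p of 0.344.

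Of the 9 spindle genes, 7 fell. Ckap2, a microtubule-stabilising protein, had 167, 154 and 173 counts with RvD2, against 324, 294 and 304 without (difference -0.90 ± 0.08, limma adjusted p 0.00324). Troap had 73.7, 49.1 and 73.7 with RvD2, against 155, 114 and 126 without (-1.02 ± 0.19, adjusted p 0.0358). Kif2c fell by 0.75 (adjusted p 0.0210), Kif11 by 0.55 (0.0229), Nusap1, a microtubule bundler, by 0.52 (0.0240), the chromokinesin Kif4, 15.1% of whose exon bases overlap Pdzd11, by 0.45 (0.0415) and Tpx2 by 0.42 (0.0308). Hmmr (-0.65, adjusted p 0.0515) and Ckap2l (-0.38, 0.126) did not pass although their groups did not overlap. A stretch of about 390 bases of Hmmr matches transcripts of many other genes.

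All 6 midzone and cytokinesis genes fell, by similar amounts. Kif23 fell by 0.64 (limma adjusted p 0.00885), the Aurora B-carrying motor Kif20a by 0.61 (0.00813), Ect2, the RhoA activator, by 0.56 (0.0129), Racgap1 by 0.56 (0.00813), the microtubule bundler Prc1 by 0.53 (0.00853) and anillin, Anln, by 0.44 (0.0450). All 6 had groups that did not overlap. In Kif20a 29.3% of exon bases overlap Cdc23 and in Prc1 11.1% overlap Rccd1, on the other strand.

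Of the chromosome genes, Pif1 and Mki67 fell. Pif1 had 61.5, 47.9 and 69.1 counts with RvD2, against 136, 115 and 138 without (difference -1.14 ± 0.16, limma adjusted p 0.0117), the largest difference among the 40. Mki67 had 2042, 2080 and 1803 counts with RvD2, against 3026, 2685 and 2490 without (-0.47 ± 0.08, adjusted p 0.0330). Top2a had 1909.5, 2037 and 1899 with RvD2, against 3034, 2477 and 2343 without (-0.42 ± 0.09, adjusted p 0.0628), and did not pass. All RvD2 libraries were the lower for each of the 3.

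**Figure D5:**
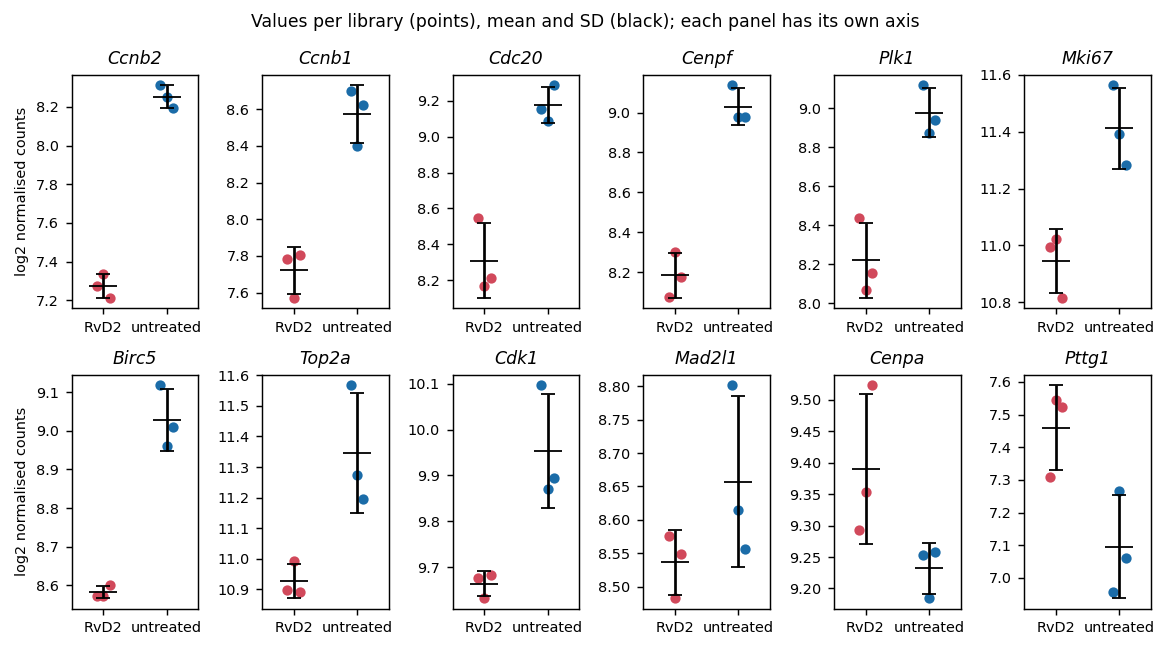
Log2 normalised counts of 12 members in each BMDM library (points; RvD2 left, untreated right), with the mean and SD (n = 3 each) in black and a separate axis per panel that does not start at 0. Ccnb2 to Birc5 show wide gaps between groups, Mad2l1 overlaps, and Cenpa and Pttg1 lie higher with RvD2.

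Which members passed varied more than the direction did. Called in the stated fit and in each of the 6 fits without 1 library were 10 genes, namely Ccnb1, Ccnb2, Cdc20, Cenpe, Cenpf, Ckap2, Kif20a, Kif23, Racgap1 and Nek2. Ccnb2, Cenpe, Cenpf, Ckap2 and Nek2 were called in all 14 settings. For Mki67 the adjusted p ranged over these settings between 0.00105 and 0.131, for Birc5 between 0.00538 and 0.0715 and for Plk1 between 0.000490 and 0.0791.

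In untreated BMDM the highest members per kilobase of exon were Cdc20 with 311 normalised counts per kb, Ccna2 with 303, Top2a with 290.5, Incenp with 279 and Mki67 with 272, and the lowest was Cdc25c with 13.3. Every BMDM library was above every muscle macrophage group for 37 of the 40 genes, the exceptions being Ccnb2, Pttg1 and Cenpa. How many of all genes were so placed was not counted, so this order is not shown to be particular to the list. The muscle and BMDM tables were normalised separately, and this order is a description with no test.

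The DNA replication genes gave no call with RvD2. In limma 0 of 44 passed in either direction, with 5 lower and 2 higher at an unadjusted p under 0.05 (8.41% and 7.15% of all genes) and a median log2 difference of -0.12 against -0.54 for the mitosis genes. Of the other mitotic genes 9 of 133 fell and 0 rose, where 1.06% of all genes fell and 0.794% rose, with a median of -0.20. The 2 of largest difference in each group that had any were the spindle protein Fam83d (-0.82, limma adjusted p 0.0352) and Aspm, a spindle pole protein (-0.71, 0.0308), the motors Kif22 (-0.64, 0.0249) and Kif14 (-0.53, 0.0373), and separase, Espl1 (-0.58, 0.0209), with Ncapd2 (-0.58, 0.0112). The remaining lists had no lower call: 18 of 35 kinetochore genes, 9 of 13 further kinase and entry genes, 3 of 15 transcription factors and 2 of 16 genes of the anaphase-promoting complex were lower at an unadjusted p under 0.05, where 8.41% of all genes were, and none passed in limma. Of the G1 genes, 0 of 6 differed at an unadjusted p under 0.05. Among the inhibitors Btg1, an antiproliferative gene, rose by 0.74 (adjusted p 0.0194). It was the only call of that list in the stated fit, in which 4 inhibitors were higher and 4 lower without adjustment.

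Marker sums of other cells did not separate the RvD2 and untreated libraries. The fibroblast markers summed to between 46152 and 73497 counts with RvD2 and between 52059 and 61886 without, and the macrophage markers to between 110740 and 138057 with RvD2 and between 103461 and 133297 without. The sums overlapped between the groups for each of the marker lists, and the defining T cell markers Cd3d, Cd3e and Cd3g were listed at 0 in every BMDM library. Which cells of the culture carried the mitosis transcripts cannot be told apart in these bulk libraries.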

How the data were processed

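Poly-A RNA libraries (TruSeq, HiSeq 2500, per the labels' protocols) of sorted muscle cells and BMDM were used, in 7 groups; samples were grouped by their titles. The submitters' processing notes name the mm10 build, TopHat2 2.0.7 and DESeq; not given in the sources used here are the counter and annotation. The deposited values were read as log2 of normalised counts, with values under 1 listed as 0: the muscle file holds the authors' mean per group, the BMDM file a column per library. In the muscle file 2 cells held no number. Low BMDM values fell on whole read steps (within 0.02) for only 40.4% to 52.6%, so reads were not recovered and no count test was run; the step put depth at roughly 9050000 to 14300000 gene reads per library.

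BMDM groups were compared with limma 3.58.1 (R 4.3.3) on the deposited log2 values, with a mean-variance trend, genes at a mean of at least 10 counts and Benjamini-Hochberg adjustment over all of them; the code was tested on simulated data. Intervals are 95%. Muscle groups were compared as log2 ratios after adding 10 counts, called at 2-fold with at least 50 counts in the higher group, with no test. Exon lengths and overlaps came from GENCODE vM21 (GRCm38), promoters from RefSeq, and pseudogene matches from an alignment of transcripts. Always named were Mki67, Top2a, Ccnb1, Cdk1, Plk1, Aurkb, Birc5 and Cdc20, then the 6 largest and 4 smallest differences, every gene against the majority and every BMDM call; from other lists, the 2 largest calls per direction. Members and lists were chosen with earlier results of these data known. Alternatives in filter, scaling, added count, fold, trend, replicate block and left-out library were tried.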

Additional observations from a re-analysis of the deposited data

How the results depend on the processing

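No member changed direction with RvD2 in any setting. The genes called, 283 in all and 28 members, became 137 and 17 with no filter on low values and 49 and 5 without the mean-variance trend; the cause was not tested. Leaving out 1 library gave 79 to 288 genes and 12 to 28 members. A replicate block gave 1066 genes and 35 members. Whether the numbers pair the samples was not settled. Deviations of same-numbered libraries correlated at 0.29, 0.02 and 0.05, and RvD2 library 3 correlated best with untreated library 2 (0.19). Correlations this weak, over so few libraries, cannot exclude pairing. Most marker sums kept the same order of library numbers in both groups. These were the sums for macrophages, monocytes, neutrophils, T and NK cells, B cells, fibroblasts, muscle, endothelium, and eosinophils and mast cells. The dendritic cell sums were tied between untreated libraries 2 and 3, and the erythroid and platelet sums did not keep the order. The stated fit treated the libraries as unpaired. Filters, added counts and scaling otherwise left 27 to 31 members called.

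In muscle, adding 1 or 32 counts in place of 10 gave day 2 subset medians of 2.57 and 1.19, and 17 and 6 members called higher on day 4 (31 at 1.5-fold, 0 at 3-fold). With 32 added, Ly6Chigh day 4 over day 2 had a median of 0.90, and Ly6Clow day 4 over day 2 had 4 called (20 at 1.5-fold, 0 at 3-fold). With no level limit 31 were called in Ly6Chigh day 4 over day 2. At 3-fold 0 members were called lower between subsets on day 2. In neutrophils the members called lower became 6 at a limit of 20 counts, 7 with no limit, 1 at 3-fold and 6 with equal totals, and the median turned to -0.38 with equal totals and -0.13 with the median ratio at 0. The day 4 minus day 2 change in subset ratio, whose alternatives were chosen after seeing the data, became -1.48 with 1 count added. Depth limits the muscle levels of genes under 10 counts, whose ratios the added count decides.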

Other observations

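The difference between RvD2 and untreated libraries was larger for cyclin B1 than for its kinase. The log2 level of Ccnb1 minus that of Cdk1 was -1.89, -2.06 and -1.88 in the RvD2 libraries and -1.39, -1.47 and -1.27 in the untreated libraries, with no overlap. Likewise Ccnb2 minus Ccna2 was -2.65, -2.34 and -2.54 with RvD2 and -2.07, -1.91 and -2.07 without. These pairs were chosen after their values were seen, and no test was run on them.

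Across the 40 genes, the RvD2 difference and the day 2 subset ratio had a Pearson r of -0.26, and the RvD2 difference and the level in untreated BMDM an r of 0.24. Genes are not independent replicates, and each axis shares its libraries over all the genes, so these are descriptions only.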
